A study of Mus musculus with 8 samples.

Results

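The genes described here are 38 whose proteins the liver makes for the complement and clotting systems of blood. They were chosen by name as rows of a table of raw counts per gene symbol, and all 38 were found among its 16540 symbols. They fall into 17 complement genes, 14 genes of clotting factors (plasminogen, the zymogen that dissolves clots, is placed here) and 7 genes of inhibitors and regulators of clotting and clot lysis. All 38 passed the filter on low counts and were tested.

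Liver RNA was sequenced from 4 vehicle-treated and 4 ISOGK-treated mice, with each library taken as 1 mouse. All mice were labelled *Apoe*-/-, a genotype that raises plasma cholesterol, and were kept on a Western diet, so no mouse with intact *Apoe* or on chow serves as a reference here. ISOGK is isoginkgetin, a biflavonoid of Ginkgo that was tested as an inhibitor of ATP-citrate lyase, and it was given daily for 8 weeks by intraperitoneal injection at 20 mg/kg; the vehicle columns are named for the solvent DMSO. The age and sex of these mice are not given in the sources used here.

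Complement is a set of plasma proteins that mark and lyse microbes. The C1q complex and the mannose-binding lectins recognise a target, serine proteases cut the next components, C4b and C3 attach to the surface, and C6, C8 and C9 help to build a pore. Clotting is likewise a cascade of proteases that ends when thrombin cuts fibrinogen into fibrin, and serpins and the protein C pathway hold it back. Hepatocytes secrete nearly all of these proteins, whereas C1q comes mainly from macrophages, and fibrinogen and C3 are known as acute-phase proteins that rise in inflammation.

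Counts per library totalled 19605286 to 24461854 among vehicle-treated and 17457106 to 21626399 among ISOGK-treated mice. Levels are given as CPM, the share of a library's counts brought to a common library size with the TMM factors of edgeR, and p-values are those of edgeR's quasi-likelihood test adjusted over 12307 tested genes. At an adjusted p under 0.05, 4.11% of all tested genes were higher and 3.44% were lower with ISOGK. *Apoe* itself had 3252 to 6489 counts per library, so the knockout cannot be read from this table and is taken from the labels. The 9 hepatocyte markers in the table summed to 156192 to 169757 CPM in vehicle-treated mice and 144758 to 179282 CPM in ISOGK-treated mice. Skeletal muscle markers summed to 85.1 CPM in vehicle-treated mouse 4 and to at most 0.681 CPM in every other mouse. ISOGK-treated mouse 4 stood apart from the other 7 mice, being highest for 23.3% and lowest for 19.3% of all tested genes, and fits without it are given beside those over all mice where they differ most. The sample titles number the libraries within each group, and each library is read here as a separate mouse. The p-values measure only the spread between these libraries.

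Most complement and clotting genes differed little between the groups. *Pros1*, which encodes protein S, rose with ISOGK and *Serpind1*, which encodes heparin cofactor II, fell, and no other of the 38 genes passed the test. Over all tested genes, 4.11% were called higher and 3.44% lower. None of the 38 also had a log2 fold change beyond 1 in either direction, a pair of thresholds met by 1.63% of all tested genes. At an unadjusted p under 0.05, 3 were higher (*C6*, *F12* and *Pros1*) and 4 were lower (*C1qc*, *Mbl2*, *F11* and *Serpind1*), against 12.5% and 11.6% of all tested genes. The DESeq2 test called 1 gene higher and 3 lower, where it called 11.7% of all tested genes in either direction, and limma-voom called 1 higher and 1 lower, where it called 7.09%. Without ISOGK-treated mouse 4, the counts were again 1 higher and 1 lower, against 5.45% of all genes tested in that fit.

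The median log2 fold change was -0.030 for complement, -0.080 for clotting factors and -0.041 for inhibitors, beside 0.0018 for all tested genes. Of the 38 fitted changes, 15 were above and 23 below 0; without ISOGK-treated mouse 4 these numbers were 9 and 29. The 95% interval of the log2 fold change lay within 1 of 0 for 35 genes, and within 0.5 of 0 for 26. The 3 genes with a wider interval were the fibrinogen chains. The groups did not overlap for 3 of the 38 genes (*Pros1*, higher with ISOGK, and *Serpind1* and *Mbl2*, lower with it), whereas they did not overlap for 15.3% of all tested genes. The highest mouse had a median of 1.48 times the CPM of the lowest for these genes, and 1.65 times for all tested genes.

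**Figure D1:**
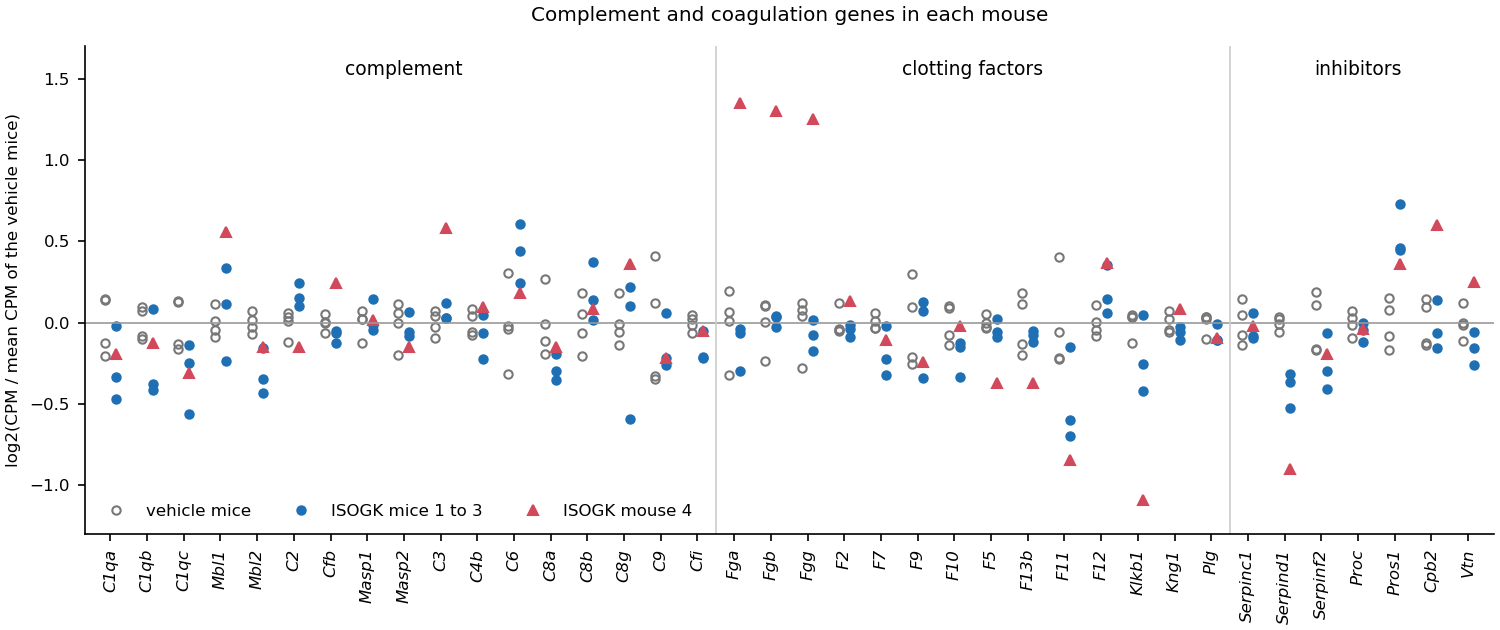
Level of each gene in each mouse as log2 of its CPM over the mean CPM of the vehicle-treated mice, for vehicle-treated mice (open circles), ISOGK-treated mice 1 to 3 (filled circles) and ISOGK-treated mouse 4 (triangles). The triangles of the 3 fibrinogen chains lie above 1, far from all other points, whereas *Pros1* is higher and *Serpind1* lower in all 4 ISOGK-treated mice than in all 4 vehicle-treated mice.

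The levels spanned a wide range. Per kilobase of annotated exon, the vehicle means ran from 2912 CPM for *Fgg* to 15.5 CPM for *Masp1*, a 188-fold span. Fibrinogen and C3 led, with *Fga* at 2776, *C3* at 2109 and *Fgb* at 1795 CPM per kilobase, followed by *Vtn* (1031), *Plg* (763), *Kng1* (678) and *Cfb* (472). The lowest vehicle means per kilobase were those of *Klkb1* (28.5), *C2* (23.4), *F11* (18.1), *Pros1* (16.6) and *Masp1*. Of the 37 pairs of neighbours in this order, 23 had vehicle-treated mice that overlapped, among them *Fgg* with *Fga* and *F11*, *Pros1* and *Masp1* with each other in turn. With ISOGK, no gene moved by more than 4 places in the order. Annotated exons take in all isoforms, so a level per kilobase is a lower estimate for genes with long rare exons.

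**Figure D2:**
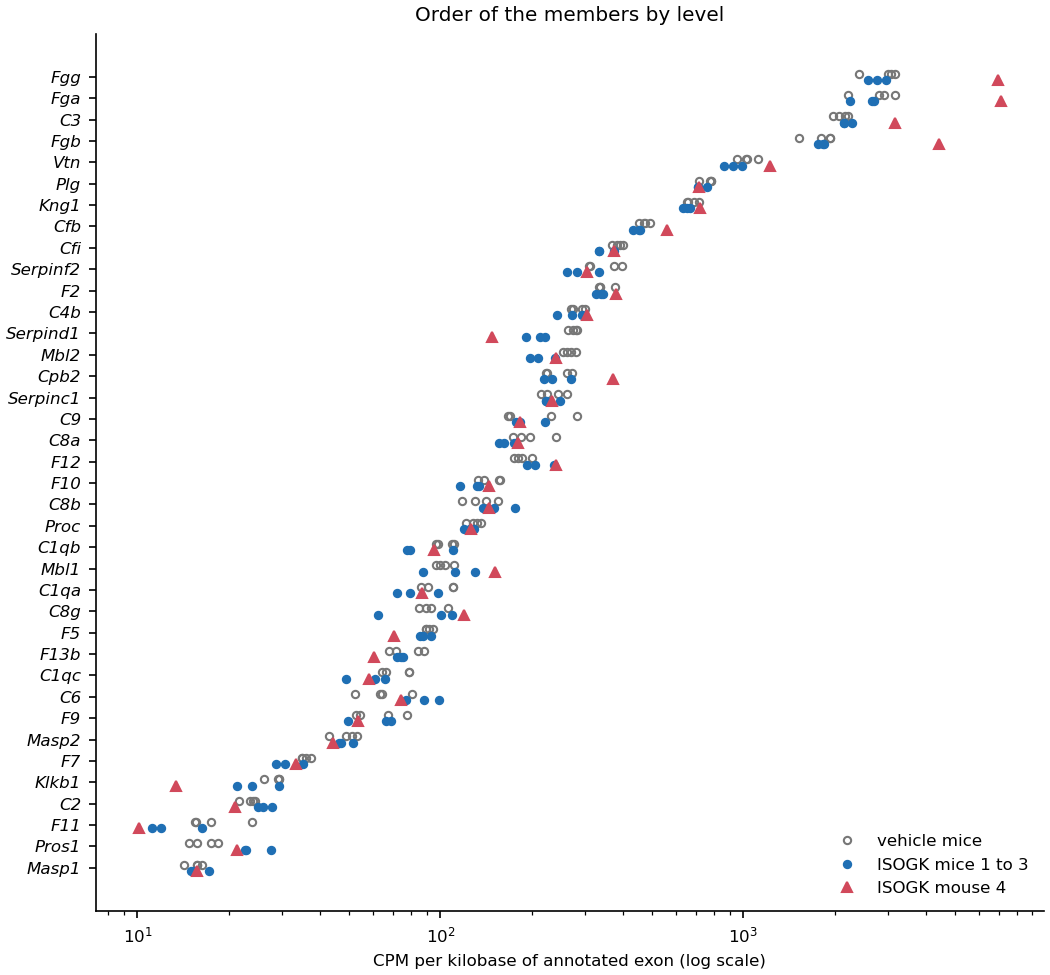
CPM per kilobase of annotated exon on a log scale for the 38 genes, ordered by their mean in vehicle-treated mice, with the same symbols for vehicle-treated mice, ISOGK-treated mice 1 to 3 and ISOGK-treated mouse 4. The fibrinogen chains and *C3* sit at the top, and *Masp1*, *Pros1* and *F11* at the bottom.

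Of the 17 complement genes, 0 were called by edgeR in either direction, where it called 4.11% of all tested genes higher and 3.44% lower. At an unadjusted p under 0.05, 1 was higher and 2 were lower, beside 12.5% and 11.6% of all tested genes. DESeq2 called 1 lower (*Mbl2*) and limma-voom 0, where they called 11.7% and 7.09% of all tested genes in either direction. All 17 intervals lay within 1 of 0 on the log2 scale.

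Among the recognition molecules, *C1qa*, *C1qb* and *C1qc* encode the chains of C1q, which binds antibody complexes. *C1qc* had 152, 127, 153 and 124 CPM in vehicle-treated mice 1 to 4 and 127, 94.4, 117 and 112 CPM in ISOGK-treated mice 1 to 4. The ISOGK-treated mice were mostly lower but overlapped the vehicle group. Its log2 fold change was -0.30 (SE 0.11, edgeR adjusted p = 0.127). *C1qa* (103 ± 13 to 87.3 ± 11.6 CPM, mean ± SD, n = 4 per group) and *C1qb* (113 ± 7.9 to 98.5 ± 16.4 CPM) had log2 fold changes of -0.24 and -0.19, with adjusted p of 0.234 and 0.347. The 3 chains thus had fitted values of like sign and size, and none passed the test. Macrophage markers lay on the same side: the 16 listed summed to 1662 to 2178 CPM in vehicle mice and 1363 to 1743 CPM in ISOGK-treated animals, all 16 were tested, and 1 of them, *Cd68*, was called lower. At an unadjusted p under 0.05, 4 of the 16 were lower and 0 higher, and DESeq2 called 3 lower. Of all tested genes, edgeR called 3.44% lower, 11.6% were lower and 12.5% higher at an unadjusted p under 0.05, and DESeq2 called 11.7% in either direction. Among the 16, *Vsig4* was very low in ISOGK-treated mouse 4 alone, as given at the end. With the replicate number as a block, edgeR called 4 lower, but replicate numbers give no pairing of the mice here. The median log2 fold change of the 16 markers was -0.36. Their part in the C1q values was not tested, and in whole liver fewer cells of a type and less RNA per cell cannot be told apart.

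The mannose-binding lectins *Mbl1* and *Mbl2*, which bind sugars on microbes, had fitted changes of opposite sign. *Mbl2* had 277, 286, 305 and 295 CPM in vehicle-treated mice 1 to 4 and 261, 229, 215 and 262 CPM in ISOGK-treated mice 1 to 4. Every ISOGK-treated mouse was below every vehicle-treated mouse. The log2 fold change of *Mbl2* was -0.27 (SE 0.096, edgeR adjusted p = 0.116), and DESeq2 called it (adjusted p = 0.0394). *Mbl1* went from 161 ± 10 to 188 ± 43 CPM (SD, n = 4 per group), with ISOGK-treated mouse 3 below all vehicle-treated mice and mouse 4 highest at 238 CPM. Its log2 fold change was 0.22 (adjusted p = 0.374), and 0.09 without mouse 4. The ratio of *Mbl1* to *Mbl2* counts within a library, which does not depend on scaling, was 0.497 to 0.630 in vehicle mice and 0.636 to 0.909 in ISOGK-treated mice, without overlap. Ratios are given as descriptions, without a test.

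The proteases that activate the cascade stayed within narrow limits. *Masp1* and *Masp2*, which encode the proteases bound to the lectins, went from 153 ± 9 to 156 ± 9 CPM and from 162 ± 15 to 156 ± 10 CPM (SD, n = 4 per group). *C2* and *Cfb*, the catalytic parts of the classical and alternative C3 convertases, went from 90.6 ± 4.9 to 96.7 ± 11 CPM and from 1332 ± 45 to 1342 ± 162 CPM. Their log2 fold changes were 0.031, -0.053, 0.095 and 0.011 in this order, and the adjusted p-values were all 0.605 or more. *C2* and *Cfb* share exonic bases with the annotated readthrough gene *Gm20547*, and *Masp2* overlaps *Tardbp* on the opposite strand, so reads could have been split or added there. The same holds for *Serpinc1* (with *Zbtb37*), *Plg* (with *Slc22a3*), *F5* (with *Gm16548*) and *Fgg* (with *Gm30097*), each with a gene on the opposite strand, since the use of strand in counting is not given in the sources used here.

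*C3*, the central component of all pathways, had 11398, 10186, 11154 and 10641 CPM in vehicle-treated mice 1 to 4. It had 11056, 11075, 11781 and 16260 CPM in ISOGK-treated mice 1 to 4. ISOGK-treated mouse 4 alone was well above the rest, while mice 1 and 2 lay within the vehicle range. The log2 fold change was 0.21 (SE 0.13, adjusted p = 0.357) and 0.06 without mouse 4. *C4b*, which encodes the related component C4, went from 1619 ± 85 to 1585 ± 153 CPM (log2 fold change -0.030, adjusted p = 0.890). Reads of *C4b* could have been shared with its near-identical copy *C4a*, which was not analysed here.

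Among the genes of the terminal pore, *C6* had the largest fitted rise. It had 286, 186, 228 and 225 CPM in vehicle-treated mice 1 to 4, and 353, 274, 314 and 263 CPM in ISOGK-treated mice 1 to 4. Only vehicle-treated mouse 1 reached into the range of the ISOGK group. *C6* had a log2 fold change of 0.38 (SE 0.14, edgeR adjusted p = 0.117). *C8a*, *C8b* and *C8g* encode the 3 chains of C8, of which the alpha and gamma chains are joined by a disulfide bond. *C8a* went from 724 ± 106 to 611 ± 40 CPM, *C8b* from 346 ± 40 to 387 ± 43 CPM and *C8g* from 140 ± 14 to 146 ± 38 CPM (SD, n = 4 per group), with adjusted p of 0.216, 0.423 and 0.854. The ratio of *C8a* to *C8b* counts was 2.00 to 2.22 in vehicle mice and 1.41 to 1.78 in ISOGK-treated mice, without overlap, whereas that of *C8g* to *C8b* overlapped (0.322 to 0.463 and 0.243 to 0.488). *C9*, which forms the wall of the pore, varied more within the vehicle group than between groups (544 ± 141 to 490 ± 52 CPM, adjusted p = 0.617). *Cfi*, the protease that inactivates C3b and C4b, went from 858 ± 30 to 785 ± 51 CPM (log2 fold change -0.13, adjusted p = 0.423).

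Of the 14 clotting factor genes, 0 were called by edgeR, where it called 4.11% of all tested genes higher and 3.44% lower. At an unadjusted p under 0.05, 1 was higher (*F12*) and 1 was lower (*F11*), beside 12.5% and 11.6% of all tested genes. DESeq2 called 1 lower (*F11*) and limma-voom 0, where they called 11.7% and 7.09% of all tested genes in either direction. The widest differences between mice in the whole set were in fibrinogen, and they came from 1 mouse.

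The fibrinogen chains alpha, beta and gamma are encoded by *Fga*, *Fgb* and *Fgg*, which lie side by side on chromosome 3 (from base 83007724 of *Fgg* to base 83049863 of *Fgb* in GRCm38). *Fga* had 8434, 8747, 6679 and 9562 CPM in vehicle-treated mice 1 to 4 and 6793, 8003, 8151 and 21271 CPM in ISOGK-treated mice 1 to 4. *Fgb* had 6848, 7336, 5799 and 7369 CPM in the vehicle group and 7042, 6999, 6707 and 16848 CPM in the ISOGK group, in the same order of mice. *Fgg* had 6285, 6639, 5027 and 6428 CPM in the vehicle group and 5791, 6167, 5412 and 14508 CPM in the ISOGK group. ISOGK-treated mouse 4 was thus above all other mice for each chain, and ISOGK-treated mice 1 to 3 lay within the vehicle range. The log2 fold changes over all mice were 0.40 for *Fga* (SE 0.36, adjusted p = 0.549), 0.46 for *Fgb* (SE 0.30, adjusted p = 0.391) and 0.39 for *Fgg* (SE 0.31, adjusted p = 0.497). Without mouse 4 they were -0.13, 0.016 and -0.07. The chains kept their proportions: in ISOGK-treated mouse 4 the ratio of *Fga* to *Fgb* counts was 1.26 and that of *Fgg* to *Fgb* was 0.861, and the other 7 mice had 0.965 to 1.30 and 0.807 to 0.918.

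The stretch of 250 bases before the RefSeq start of each fibrinogen gene (RefSeq, GRCm38.p6) is shown because the 3 chains were high together in 1 mouse, and because fibrinogen genes are textbook targets of interleukin 6. Capitals mark matches on either strand to 4 motifs: the interleukin 6 response element of type II (CTGGGAA), a C/EBP site (TTGCNNAA), a STAT site (TTCNNNGAA) and an HNF1 core (GTTAAT). The starts are those of RefSeq, and for *Fga* the RefSeq start lies downstream of the gene start in the GENCODE annotation.
Fga, chr3:83025903-83026152, plus strand: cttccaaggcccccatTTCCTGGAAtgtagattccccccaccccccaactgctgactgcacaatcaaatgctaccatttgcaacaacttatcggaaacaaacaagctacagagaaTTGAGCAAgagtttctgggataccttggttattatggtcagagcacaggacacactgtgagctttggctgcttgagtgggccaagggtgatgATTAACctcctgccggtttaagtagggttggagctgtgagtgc
Fgb, chr3:83049864-83050113, minus strand: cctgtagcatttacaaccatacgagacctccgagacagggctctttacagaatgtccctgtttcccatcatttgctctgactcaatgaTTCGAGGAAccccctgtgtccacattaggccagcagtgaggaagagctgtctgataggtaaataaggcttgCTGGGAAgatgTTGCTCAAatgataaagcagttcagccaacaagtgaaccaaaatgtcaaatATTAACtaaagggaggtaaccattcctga
Fgg, chr3:83007474-83007723, plus strand: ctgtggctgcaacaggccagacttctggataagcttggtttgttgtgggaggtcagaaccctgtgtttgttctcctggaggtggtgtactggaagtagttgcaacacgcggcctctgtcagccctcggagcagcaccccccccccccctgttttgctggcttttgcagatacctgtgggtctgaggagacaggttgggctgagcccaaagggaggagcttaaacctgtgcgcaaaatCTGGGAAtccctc

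The *Fgb* window held all 4 motifs, the *Fga* window held all but the interleukin 6 response element, and the *Fgg* window held that element only. Of 32851 windows of the same length in RefSeq, 9.10% held the interleukin 6 response element, 9.56% the C/EBP site, 7.02% the STAT site and 6.43% the HNF1 core. Of the 29 genes of the set matched in the table of promoters, 4, 7, 6 and 6 held them. The window of *Serpind1* held none of the 4 and that of *Pros1* held 1 STAT match. A match describes the letters in this window and does not show that a factor binds there.

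Other acute-phase genes were high in the same mouse. *Saa2* (serum amyloid A) had 2733 CPM in ISOGK-treated mouse 4 and 33.5 to 142 CPM in the other 7 mice, and the 23 genes of the interleukin 6 and acute-phase list summed to 38522 CPM in that mouse and to 13224 to 17155 CPM in the others. Mouse 4 was the highest of all 8 for 14 of these 23 genes and more than 2 times the next mouse for 7 of them (*Saa1*, *Saa2*, *Orm1*, *Orm2*, *Hp*, *Apcs* and *Lcn2*). Among the 38 genes, ISOGK-treated mouse 3 was lowest for 12 and highest for 0, beside 13.3% and 12.2% of all tested genes. Mouse 4 was highest for 13 of the 38 (*Mbl1*, *Cfb*, *C3*, *C4b*, *C8g*, *Fga*, *Fgb*, *Fgg*, *F2*, *F12*, *Kng1*, *Cpb2* and *Vtn*). It was lowest for 6 of them, and over all tested genes it was highest for 23.3% and lowest for 19.3%. Mouse 4 was more than 2 times the next mouse for the 3 fibrinogen chains, a distance reached by 28 of all 12307 tested genes. Not every gene of the list shared the pattern: *Il6st*, the shared receptor chain gp130, had 213 CPM in that mouse and 211 to 243 CPM elsewhere, and *Jak2* had 5.76 CPM there and 7.44 to 13.6 CPM elsewhere. What set this mouse apart was not tested, and the labels name nothing about it.

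**Figure D3:**
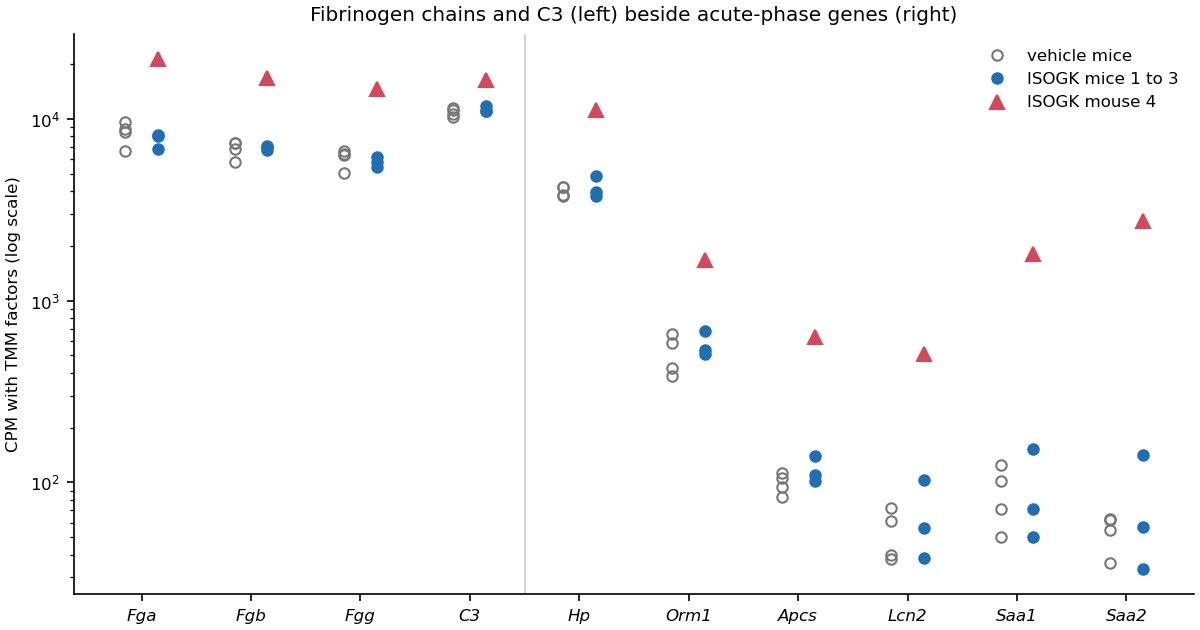
CPM on a log scale of the fibrinogen chains and *C3* (left of the line) and of 6 acute-phase genes (right of it) in each mouse, as open circles for vehicle-treated mice, filled circles for ISOGK-treated mice 1 to 3 and triangles for ISOGK-treated mouse 4. The triangle is the highest point for all 10 genes, while ISOGK-treated mice 1 to 3 mix with or lie close to the vehicle-treated mice. The 6 acute-phase genes are among the 7 for which mouse 4 was more than 2 times the next mouse. Its place there thus follows from the choice of genes. Of all 23 genes on that list, mouse 4 was highest for 14.

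The vitamin K-dependent zymogens prothrombin (*F2*) and factors VII, IX and X (*F7*, *F9* and *F10*) are carboxylated in the liver before secretion. Their CPM went from 1592 ± 96 to 1596 ± 108 for *F2*, from 66.6 ± 2.0 to 59.5 ± 5.5 for *F7*, from 172 ± 32 to 163 ± 26 for *F9* and from 400 ± 33 to 360 ± 32 for *F10* (SD, n = 4 per group). The log2 fold changes were 0.0037, -0.16, -0.081 and -0.15, with adjusted p of 0.986, 0.291, 0.784 and 0.394. None of these genes passed the test. *F5*, the cofactor of factor X, went from 678 ± 18 to 625 ± 71 CPM (log2 fold change -0.12, adjusted p = 0.528), with ISOGK-treated mouse 4 lowest at 524 CPM and a log2 fold change of -0.041 without it. *F13b*, the carrier of the crosslinking factor XIII, went from 198 ± 25 to 178 ± 17 CPM (log2 fold change -0.15, adjusted p = 0.462).

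The contact system starts clotting on charged surfaces. *F11* (factor XI) had 53.6, 39.0, 34.7 and 34.9 CPM in vehicle-treated mice 1 to 4 and 36.6, 25.0, 26.9 and 22.6 CPM in ISOGK-treated mice 1 to 4. Of the ISOGK group, mouse 1 alone reached the vehicle range. *F11* had a log2 fold change of -0.54 (SE 0.17, edgeR adjusted p = 0.0834), the lowest of the 38, and passed in the DESeq2 test (adjusted p = 0.0374) and in edgeR without ISOGK-treated mouse 1 (log2 fold change -0.71, adjusted p = 0.0201).

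*F12* (factor XII) had 344, 366, 352 and 393 CPM in vehicle mice and 403, 466, 379 and 470 CPM in ISOGK-treated mice 1 to 4. Vehicle-treated mouse 4 and ISOGK-treated mouse 3 overlapped, and the other ISOGK-treated mice were above the vehicle group. Its log2 fold change was 0.24 (SE 0.10, adjusted p = 0.173). *Klkb1* (plasma prekallikrein) had 153, 154, 154 and 137 CPM in vehicle mice and 155, 112, 125 and 70.4 CPM in ISOGK-treated mice 1 to 4. Here ISOGK-treated mouse 4 was the lowest of all 8. For *Klkb1* the log2 fold change was -0.37 (SE 0.19, adjusted p = 0.262) and -0.20 without mouse 4. *Klkb1* shares exonic bases with the annotated gene *Gm45753* on the same strand. *Kng1*, the source of bradykinin, went from 2203 ± 94 to 2165 ± 124 CPM (log2 fold change -0.025, adjusted p = 0.899), and its reads could have been shared with its close copy *Kng2*. *Plg*, the zymogen of plasmin, went from 2833 ± 123 to 2682 ± 91 CPM (log2 fold change -0.079, adjusted p = 0.638).

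Over the 38 genes, edgeR called 1 higher and 1 lower, beside 4.11% and 3.44% of all tested genes. Both were among the 7 inhibitor genes. *Serpind1* (ENSMUSG00000022766, chromosome 16, 17331371 to 17343575, plus strand, GRCm38) encodes heparin cofactor II, a serpin that inhibits thrombin. It had 580, 617, 601 and 613 CPM in vehicle-treated mice 1 to 4 and 468, 420, 485 and 324 CPM in ISOGK-treated mice 1 to 4. All ISOGK-treated mice were below all vehicle-treated mice, and mouse 4 was the lowest. The log2 fold change was -0.51 (SE 0.12, 95% interval -0.77 to -0.24, edgeR adjusted p = 0.0294), a level of 0.704 times that of the vehicle group. Without ISOGK-treated mouse 4 it was -0.40 (adjusted p = 0.0282). When single mice were left out, the call was lost in 5 of 8 fits, with an adjusted p of 0.0601 without vehicle-treated mouse 1, 0.0904 without mouse 2, 0.0703 without mouse 3, 0.0699 without mouse 4 and 0.0738 without ISOGK-treated mouse 2, while the log2 fold change lay between -0.58 and -0.40 in all 8.

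*Pros1* (ENSMUSG00000022912, chromosome 16, 62854307 to 62929346, plus strand, GRCm38) encodes protein S, the vitamin K-dependent cofactor of activated protein C. It had 71.8, 75.4, 60.5 and 64.1 CPM in vehicle-treated mice 1 to 4 and 92.7, 113, 93.6 and 87.2 CPM in ISOGK-treated mice 1 to 4. All ISOGK-treated mice were above all vehicle-treated mice. The log2 fold change was 0.51 (SE 0.11, 95% interval 0.27 to 0.74, edgeR adjusted p = 0.0159), a level 1.42 times that of the vehicle group, and 0.55 (adjusted p = 0.0155) without ISOGK-treated mouse 4. The call was lost without vehicle-treated mouse 3 (adjusted p = 0.0554), without vehicle-treated mouse 4 (adjusted p = 0.0511) and with scaling by library size alone (log2 fold change 0.38, adjusted p = 0.0570). *Proc*, which encodes protein C, the partner of protein S, went from 321 ± 16 to 310 ± 10 CPM (SD, n = 4 per group; log2 fold change -0.051, adjusted p = 0.764). The ratio of *Proc* to *Pros1* counts was accordingly 4.19 to 5.42 in vehicle mice and 2.85 to 3.58 in ISOGK-treated mice.

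The other inhibitor genes did not pass the test. *Serpinc1* (antithrombin) went from 2025 ± 178 to 1981 ± 98 CPM and *Serpinf2* (the inhibitor of plasmin) from 809 ± 103 to 687 ± 70 CPM, with log2 fold changes of -0.032 (adjusted p = 0.877) and -0.24 (adjusted p = 0.239). *Cpb2*, a carboxypeptidase that slows clot lysis, went from 399 ± 41 to 446 ± 111 CPM, and *Vtn* (vitronectin, an adhesive plasma protein) from 2093 ± 140 to 2034 ± 325 CPM. ISOGK-treated mouse 4 was the highest for both, and the log2 fold changes of 0.16 and -0.041 became -0.02 and -0.15 without it. The ratios of target to inhibitor also overlapped between the groups, at 3.15 to 4.02 and 3.64 to 4.32 for *Plg* to *Serpinf2*, and 0.741 to 0.838 and 0.747 to 0.877 for *F2* to *Serpinc1*. In all, 3 of the 11 ratios examined did not overlap (*Mbl1* to *Mbl2*, *C8a* to *C8b* and *Proc* to *Pros1*). The first and last of these hold *Mbl2* and *Pros1*, whose own CPM did not overlap between the groups. Ratios of other genes were not examined for a share to set beside this count, and 15.3% of single tested genes did not overlap.

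**Figure D4:**
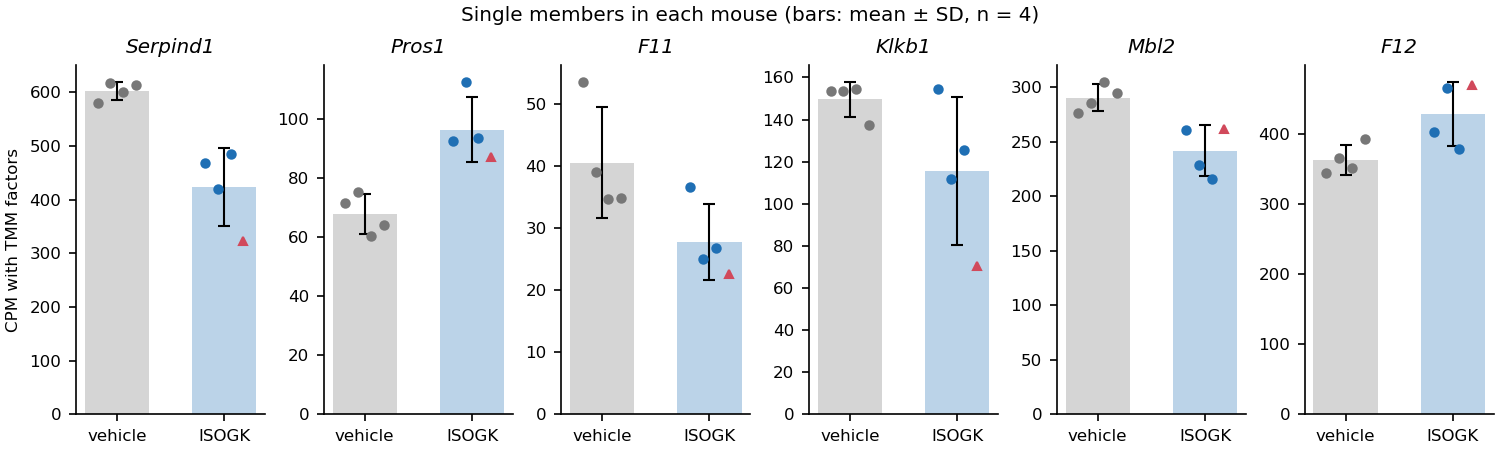
CPM of 6 genes in each mouse (points), with bars for the group mean and error bars for the SD (n = 4); the y axes start at 0 and the triangle marks ISOGK-treated mouse 4. The groups are apart for *Serpind1*, *Pros1* and *Mbl2*, and they overlap for *F11*, *Klkb1* and *F12*.

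**Figure D5:**
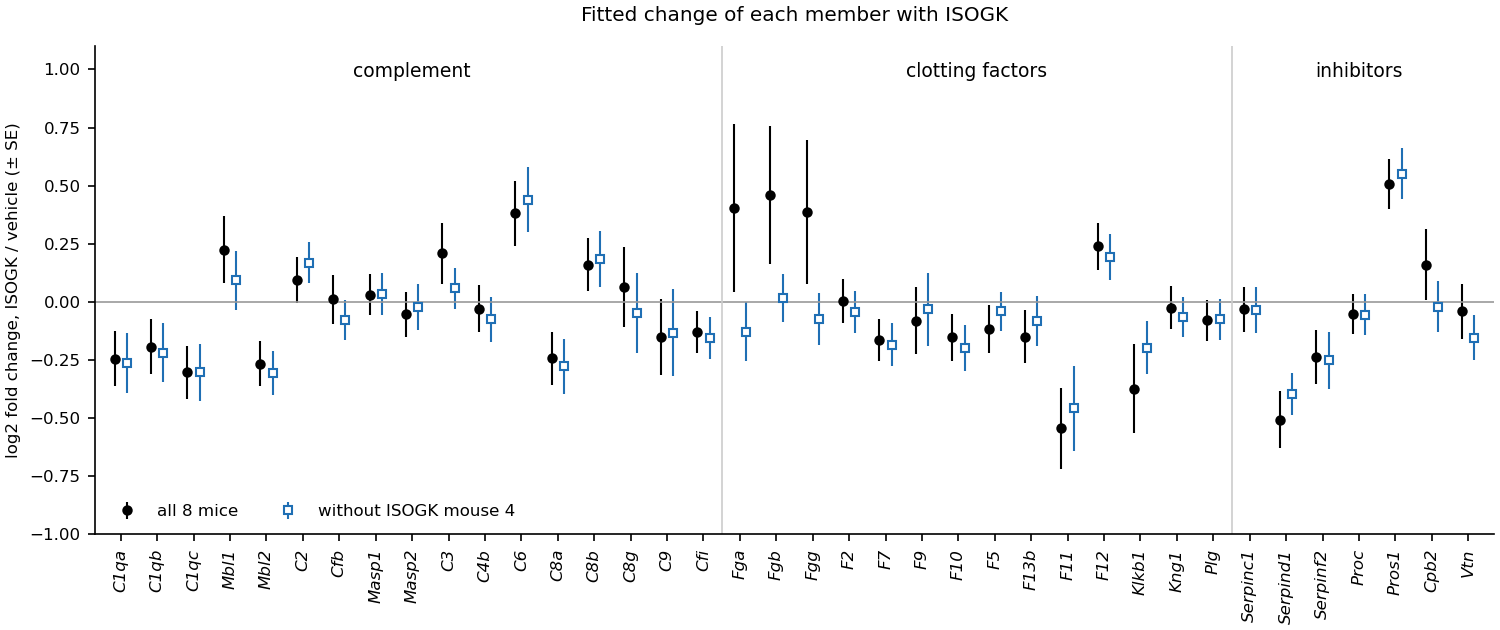
Fitted log2 fold change of ISOGK over vehicle (points) with its SE (bars) for the 38 genes, over all 8 mice (filled circles) and without ISOGK-treated mouse 4 (open squares). The fibrinogen chains move from between 0.39 and 0.46 to near 0. *Serpind1* and *Pros1*, like all but 6 of the 38 genes, keep their side of 0.

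Without ISOGK-treated mouse 4, the fitted change of 6 genes took the other sign: *C8g* went from 0.065 to -0.048, *Cfb* from 0.011 to -0.078, *F2* from 0.0037 to -0.044, and *Cpb2*, *Fga* and *Fgg* as given above. None of the 6 was called in either fit.

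As a share of all counts, the 38 genes took 5.42% to 5.90% in vehicle-treated mice, 5.0% to 5.28% in ISOGK-treated mice 1 to 3 and 8.05% in ISOGK-treated mouse 4. The fibrinogen chains alone took 1.91% to 2.44%, 1.90% to 2.05% and 4.64%. The 34 genes other than fibrinogen and C3, a subset chosen after the values were seen and therefore not tested, took 2.25% to 2.34% in vehicle mice and 1.97% to 2.04% in ISOGK-treated mice. That separation depended on the scaling: with TMM factors the same 34 genes summed to 21149 to 22428 CPM in vehicle mice and 20060 to 22358 CPM in ISOGK-treated mice, and the groups overlapped. The 7 inhibitor genes took 0.599% to 0.714% in vehicle mice and 0.557% to 0.589% in ISOGK-treated mice, without overlap. With TMM factors they summed to 5892 to 6813 CPM in vehicle mice and 5491 to 6522 CPM in ISOGK-treated mice, with overlap.

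Among the rest of the pathways, 6 lists of complement, clotting, fibrinolysis and vitamin K genes held 66 tested genes. Of these, 1 was called higher (1.52%) and 6 lower (9.09%), beside 4.11% and 3.44% of all tested genes, and without ISOGK-treated mouse 4 the counts were 2 higher and 2 lower. Of 8 tested genes among the other complement components, 0 were called by edgeR or limma-voom, DESeq2 called 1 lower, and 3 were lower and 0 higher at an unadjusted p under 0.05; the smallest p-values were those of *Cfp* (properdin, log2 fold change -0.42, adjusted p = 0.0692) and *Hc* (component C5, -0.33, adjusted p = 0.115). Of 17 complement regulators and receptors, 1 was called lower, *Itgb2*, the beta chain of the leukocyte receptors for C3 fragments (-0.50, adjusted p = 0.0367). It was not called without ISOGK-treated mouse 4. At an unadjusted p under 0.05, 5 of these 17 were lower and 0 higher, beside 11.6% and 12.5% of all tested genes. Of 13 other clotting factors and receptors, 3 were called lower. They were *Lman1*, the cargo receptor that carries factors V and VIII out of the endoplasmic reticulum (-0.47, adjusted p = 0.00813), *F8* (factor VIII, -0.64, adjusted p = 0.0293) and *Asgr2*, a chain of the asialoglycoprotein receptor that clears plasma glycoproteins (-0.44, adjusted p = 0.0352). Without ISOGK-treated mouse 4, only *Lman1* of these 3 was called (adjusted p = 0.0168), with 0.0627 for *F8* and 0.0647 for *Asgr2*. *Mcfd2*, the partner of *Lman1*, was at 0.011 (adjusted p = 0.956; named after its values were seen).

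Of 13 other inhibitors and cofactors, 1 was called lower, *Proz*, which encodes protein Z, a cofactor in the inhibition of activated factor X (-0.33, adjusted p = 0.0370). Of 10 genes of fibrinolysis, 1 was called higher, *S100a10*, a partner of annexin A2 in a surface receptor for plasminogen (0.93, adjusted p = 0.00280). Of 5 tested genes of the vitamin K cycle, 1 was called lower, *Ggcx*, the carboxylase that modifies the vitamin K-dependent factors, with 31.2, 32.7, 34.0 and 37.1 CPM in vehicle mice and 21.5, 25.3, 28.3 and 24.7 CPM in ISOGK-treated mice 1 to 4. Its groups did not overlap, and its log2 fold change was -0.44 (adjusted p = 0.0265). Of 19 other secreted liver proteins, *Serpina3k* (0.73, adjusted p = 0.0138) and *Rbp4* (retinol-binding protein, 0.38, adjusted p = 0.0381) were called higher and *Serpina6* (corticosteroid-binding globulin, -1.64, adjusted p = 0.000689) lower.

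Of 16 liver transcription factors, 0 were called by edgeR or limma-voom, DESeq2 called 1 in each direction, and 2 were higher and 1 lower at an unadjusted p under 0.05. *Cebpa* (-0.49, adjusted p = 0.0679) and *Cebpd* (0.72, adjusted p = 0.105), which bind C/EBP sites, had the smallest p-values. Of the 23 genes of interleukin 6 signalling and the acute phase, 0 were called by edgeR or limma-voom, DESeq2 called 1 lower, and 0 were higher and 2 lower at an unadjusted p under 0.05. The smallest p-values there were those of *Jak2* (-0.58, adjusted p = 0.0735) and *Lifr* (-0.35, adjusted p = 0.156). Beside these counts, edgeR called 4.11% of all tested genes higher and 3.44% lower. DESeq2 called 11.7% and limma-voom 7.09% in either direction, and 12.5% were higher and 11.6% lower at an unadjusted edgeR p under 0.05.

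Markers of the other cells that liver samples hold gave the following counts. For comparison, edgeR called 4.11% of all tested genes higher and 3.44% lower. Without ISOGK-treated mouse 4, it called 5.45% of the genes tested in that fit in either direction. DESeq2 called 11.7% and limma-voom 7.09% in either direction, and 12.5% were higher and 11.6% lower at an unadjusted edgeR p under 0.05. Besides *Cd68* (-0.58, adjusted p = 0.00900), 2 of 9 markers of lipid-associated macrophages were called lower, *Gpnmb* (-1.19, adjusted p = 6.48e-05) and *Lpl* (-0.995, adjusted p = 0.00951), and the 9 summed to 338 to 404 CPM in vehicle mice and 219 to 265 CPM in ISOGK-treated mice. The 9 went both ways, and their median log2 fold change was -0.047. *Spp1*, which is also on the list of cholangiocyte markers, had 0.61 (edgeR adjusted p = 0.188) over all mice and 0.81 (adjusted p = 0.0248) without ISOGK-treated mouse 4. Of 7 monocyte and neutrophil markers, 1 was called higher (*S100a9*, 1.31, adjusted p = 0.0149), and of 5 tested cholangiocyte markers, 1 was called higher (*Sox9*, 0.51, adjusted p = 0.0494). At an unadjusted p under 0.05, 3 of these monocyte and neutrophil markers and 4 of these cholangiocyte markers were higher. DESeq2 called 3 and 2 higher, limma-voom 1 and 1, and edgeR without ISOGK-treated mouse 4 called 1 and 2. Those 2 cholangiocyte markers took in *Spp1* and not *Sox9*. *Spp1* is thus counted in 2 of the lists. By edgeR, 0 of 10 endothelial, 0 of 9 stellate cell, 0 of 4 tested lymphocyte and 0 of 9 hepatocyte markers were called. At an unadjusted p under 0.05, 1, 2, 0 and 0 of them were lower and none higher. DESeq2 called 1 stellate cell marker lower (*Lrat*) and limma-voom 0. Without ISOGK-treated mouse 4, edgeR called 1 stellate cell marker lower (*Acta2*, adjusted p = 0.0247). In edgeR over all mice, the 2 smallest adjusted p-values of each list were those of *Cdh5* and *Pecam1*, *Lrat* and *Acta2*, *Cd79a* and *Klrb1c*, and *Ttr* and *Ahsg*. The part of these cells in the values above was not tested. Of the 15 calls in the lists, 6 (*Cd68*, *Gpnmb*, *Lman1*, *Lpl*, *S100a10* and *Serpina6*) were kept whichever of the 8 mice was left out. *S100a9* and *Serpina3k* were lost without vehicle-treated mouse 2 (adjusted p = 0.0522 and 0.0607), and the other 7 (*Asgr2*, *F8*, *Ggcx*, *Itgb2*, *Proz*, *Rbp4* and *Sox9*) in 5 or more of these fits, with highest adjusted p of 0.106, 0.101, 0.0737, 0.106, 0.0973, 0.116 and 0.140.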

How the data were processed

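Liver RNA was sequenced from 8 mice, 4 per group. Single-end reads were mapped by the authors with HISAT2, and StringTie gave raw counts of each gene; the submitters' processing notes name the build mm10. The deposited table holds these raw counts by gene symbol, not normalized, with 17457106 to 24461854 counts per library. The use of strand in counting is not given in the sources used here. The counts carry no molecular identifiers. Groups and replicate numbers came from the sample titles, and columns were matched to them by name. The members and the gene lists were chosen with earlier results of these data known.

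Genes were filtered with filterByExpr of edgeR 4.0.16 (minimum count 10, minimum total 15), which left 12307 of 16540, normalized with TMM, and tested with the robust quasi-likelihood test in R 4.3.3 with Benjamini-Hochberg adjustment over all tested genes. SE is the absolute log2 fold change over the root of F, and intervals use the t distribution of the fit. The common biological coefficient of variation was 0.164. All members are named; of each list, all called genes (up to 5) or otherwise the 2 with the smallest adjusted p are named. Positions, exon lengths and overlaps come from GENCODE M21 (GRCm38.p6) and promoter sequences from RefSeq (GRCm38.p6). Motifs were searched on both strands. Alternatives were DESeq2 1.42.0, limma-voom (limma 3.58.1), edgeR scaled by the size factors of DESeq2, edgeR scaled by library size alone, no filter past 1 count, at least 10 counts in every library, the robust option off, a replicate block and each mouse left out in turn. The fits were tested on simulated data.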

Additional observations from a re-analysis of the deposited data

Results flagged for a closer look

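In each group of 4 mice, a mouse is listed here where its gap to the nearest other mouse took more of the group's range than Dixon's 95% critical value. Over 134 groups of 4 (76 of them of complement and clotting genes), chance gives about 1 in 20, or 6.7 (3.8), and 10 were found, 9 of them of complement and clotting genes. In ISOGK-treated mouse 4, the gap was 0.861 of the range for *C3*, 0.906 for *Fga*, 0.967 for *Fgb* and 0.917 for *Fgg*, the mouse being the highest each time. ISOGK-treated mouse 1 was the highest for *C9* (0.866) and ISOGK-treated mouse 2 for *Plg* (0.864). Vehicle-treated mouse 4 was the highest for *F2* (0.947) and the lowest for *Klkb1* (0.938), vehicle-treated mouse 3 was the lowest for *Plg* (0.867), and vehicle-treated mouse 1 was the highest for *Serpina3k* (0.932). These groups share the same mice and are not independent of each other. Neither the flags in ISOGK-treated mouse 4 nor those outside it were tested against chance.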

How the results depend on the processing

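Over the 16 alternatives, 24 of the 38 genes kept the sign of their fitted change. The other 14 (*C2*, *C4b*, *C8g*, *C9*, *Cfb*, *Cpb2*, *F2*, *F9*, *Fga*, *Fgg*, *Kng1*, *Masp1*, *Serpinc1* and *Vtn*) were not called in any fit, and 12 of them were within 0.2 of 0 on the log2 scale in the report, all but *Fga* and *Fgg*. Calls were gained or lost for *Serpind1*, *Pros1*, *F11* and *Mbl2*. The number of genes called lower, 1 in the report, was 3 with DESeq2, 3 when scaled by library size alone, 2 under the replicate block and 0 to 2 when a mouse was left out; that called higher, also 1, was 0 with library size alone and 0 to 1 when a mouse was left out. *Fga* ranged from -0.13 (without ISOGK-treated mouse 4) to 0.58. Scaling by library size alone moved the median log2 fold change of all genes to -0.13, and those of complement, clotting factors and inhibitors to -0.16, -0.20 and -0.18, so most of that shift was shared by all genes. Replicate numbers are shared by the groups, but the correlations of same-numbered mice were 0.013, -0.014, 0.075 and 0.085, so they give no pairing; with the replicate block *F11* was called (adjusted p = 0.0114).

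Over all tested genes, 929 were called here by edgeR, 1435 by DESeq2 and 872 by limma-voom; library size alone gave 262 higher and 804 lower in place of 506 and 423. Leaving out a mouse gave 379 (vehicle-treated mouse 2) to 1235 (ISOGK-treated mouse 3). With 4 mice per group, changes of the size fitted for most complement and clotting genes cannot be told from 0, and intervals, not p-values, bound them. mRNA levels do not measure plasma protein. Counts without molecular identifiers limit precision beyond counting error.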

Other observations

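*Vsig4*, the complement receptor of Kupffer cells that takes up C3-coated particles, had 5.34 CPM in ISOGK-treated mouse 4 and 75.0 to 104 CPM in the other 7 mice. Its log2 fold change was -0.51 over all mice (edgeR adjusted p = 0.714) and -0.13 without that mouse (adjusted p = 0.564). *F13a1*, the catalytic chain of factor XIII, which is made by macrophages and platelets rather than hepatocytes, had 0.402 to 0.701 CPM in vehicle-treated mice, 2.45, 1.58 and 1.53 CPM in ISOGK-treated mice 1 to 3 and 0.419 CPM in ISOGK-treated mouse 4. Its log2 fold change was 1.43 (adjusted p = 0.0724), and 1.74 (adjusted p = 0.0102) without mouse 4, whereas its partner *F13b* was not called in either fit. These 2 genes were picked after their values were seen, and what lies behind each was not tested.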
